A study of Mus musculus with 23 samples.

Results

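Plasmablasts that carried a guide RNA against Irf8 were compared with plasmablasts that carried no guide, in cultures of mouse spleen B cells. The cultured plasmablasts were picked out by the sample labels, and 5 of the 23 libraries of the series fell under this rule. Of these, 3 were KO libraries (KO m1, KO m2 and KO m3) and 2 were WT libraries (WT m1 and WT m2). All 5 came from naive B cells kept for 72 hours in culture with IL-2 at 20 ng/ml, IL-5 at 5 ng/ml and LPS, for which the labels give 20 mg/ml, a value in which a micro sign may have been lost. The sorted cells lacked CD11b, F4/80 and Thy1.2, had B220 at a positive or intermediate level and had CD138. The KO libraries are labelled with sgRNA 1 and were gated on Thy1.1, whereas the WT libraries have no sgRNA and came from the Thy1.1-negative gate. There was no group with a guide to some other gene, so the targeting of Irf8, the presence of a guide and the Thy1.1 sort cannot be told apart. How the guide was delivered, and the strain and age of the mice, are not given in the sources used here. The culture protocol calls these cells plasmablasts, although their cell type is labelled as plasma cell. Activated B cells of the same kind of culture (B220-positive, GL7-positive and CD138-negative) and naive B cells are used below only to show where the plasmablasts differ. The 12 naive libraries were in separate arms for sgRNA 1 and sgRNA 2. Each arm had 3 Thy1-positive libraries with its guide (naive KO) and 3 Thy1-negative libraries without a guide (naive WT).

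IRF8 is an interferon regulatory factor, one of a family of transcription factors. It binds DNA weakly by itself and is known to act with ETS family partners such as PU.1 and SPIB at ETS-IRF composite sites, and with other IRFs at interferon response sites. In B cells it is known to support the mature and germinal centre B cell programmes and to counter the plasma cell programme, which is driven by IRF4, BLIMP-1 (the product of Prdm1) and XBP1. A plasmablast is a dividing cell that has begun to secrete antibody and has lowered much of the B cell programme.

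Levels were deposited as RPKM, which corrects the reads of a gene for its length and for library size, and the number of reads behind them was estimated from the smallest steps between values. KO m1 held an estimated 19144000 reads, KO m2 21284000, WT m1 26896000 and WT m2 4246000. KO m3 held only an estimated 49000 reads, with 1984 genes listed at 0 and a median correlation with the other cultured libraries of 0.477, against 0.944 to 0.968 for the rest. The comparison was therefore made on m1 and m2, with KO m3 given beside it. The activated libraries m1 and m2 were fitted together with them to share 1 estimate of the spread. In the activated m3 libraries Thy1 went against the labels, with 25.7 RPKM in the library labelled WT but 0.093 in the library labelled KO, and both were left out. Nothing says that the m-numbers mark separate animals or cultures, so p-values measure the spread between these libraries, which may be technical.

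The sorted cells carried plasmablast markers in both groups, but not all of these markers were far above activated B cells. Prdm1 was at 109% of the mean of the activated group with the same label in KO and at 114% in WT. For Irf4 these shares were 145% and 161%, for Xbp1 182% and 270%, and for Jchain 207% and 435%. Sdc1 and Tnfrsf17 were far higher in plasmablasts. Sdc1, the gene of CD138, was at 33.3 RPKM in KO m1, 29.3 in KO m2, 27.5 in WT m1 and 34.1 in WT m2. KO and WT overlapped, and the activated m1 and m2 libraries lay below 1 RPKM in the plot of markers. Jchain, which joins the subunits of IgM and IgA, was at 1563 and 1482 RPKM in KO and at 1236 and 2498 in WT. The 2 WT libraries thus lay on either side of both KO libraries, and WT m2 was also the highest in Mzb1 (1495 RPKM, against 812 to 935 in the other 3) and Xbp1 (970, against 609 to 765). Of B cell markers, Ms4a1, the gene of CD20, was still present at 40.8 to 56.7 RPKM in KO and WT plasmablasts. The summed level of 5 other B cell markers (Pax5, Bach2, Ciita, Cd22 and Fcer2a) was 12.1 RPKM in KO m1, 6.98 in KO m2, 6.55 in WT m1 and 2.85 in WT m2. These sums were 7.74%, 4.47%, 4.19% and 1.82% of the mean sum in the activated libraries, so both KO libraries lay above both WT libraries. Of the 5 markers, Ciita and Cd22 lay above WT in both KO libraries, whereas KO and WT overlapped for Pax5, Bach2 and Fcer2a. Leaving out Ms4a1 was chosen after its values were seen. With Ms4a1 the sums were 68.8, 54.15, 54.6 and 43.7 RPKM, and KO and WT overlapped. Ms4a1 alone made up most of each of these sums, so their overlap says little about the 5 low markers. None of the 10 neutrophil or 7 platelet markers was among the listed genes, and the 4 listed macrophage markers summed to 7.03 to 11.4 RPKM.

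**Figure D1:**
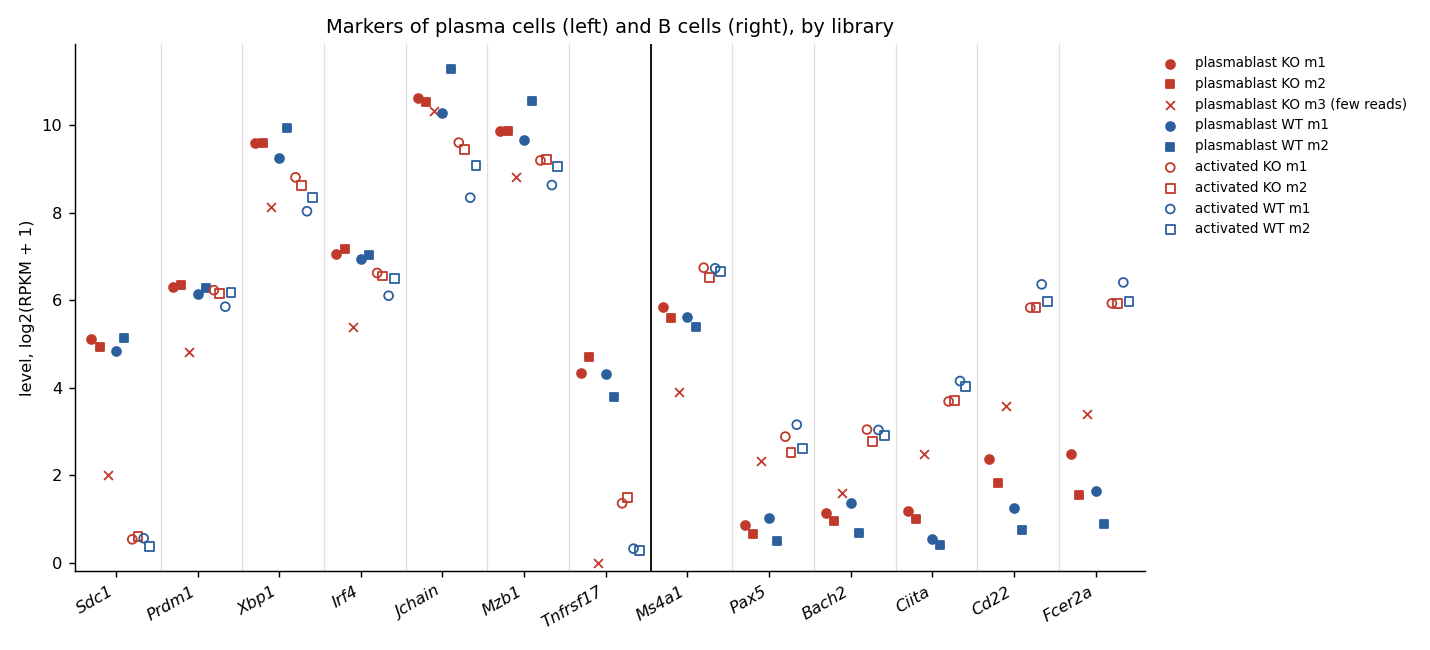
Level of 7 plasma cell markers (left of the black line) and 6 B cell markers (right) as log2(RPKM + 1), 1 point per library, with KO in red, WT in blue, filled points for plasmablasts and open points for activated B cells. Crosses mark plasmablast KO m3 with its few reads. Sdc1 separates plasmablasts from activated B cells. In m1 and m2, KO and WT plasmablasts overlap for Sdc1, Xbp1, Jchain, Mzb1, Ms4a1, Pax5, Bach2 and Fcer2a. Both KO libraries lie above both WT libraries for the plasma cell markers Prdm1, Irf4 and Tnfrsf17 and for the B cell markers Ciita and Cd22.

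Irf8 transcript itself did not separate the groups in plasmablasts. Irf8 (Entrez 15900, GRCm38 chromosome 8, 120736358 to 120756694) was at 17.5 RPKM in KO m1, 21.4 in KO m2, 24.6 in WT m1 and 17.6 in WT m2. The groups overlapped, and KO m3, with 11 estimated reads, was at 24.2. The log2 difference, KO minus WT on the log2(RPKM + 1) scale as for all differences below, was -0.10 (95% interval -0.42 to 0.22, adjusted p = 0.992). Activated KO libraries held 69.2 and 68.1 RPKM of Irf8 and activated WT libraries 108 and 93.6, a difference of -0.55 that did not pass the test (adjusted p = 0.126). Plasmablast KO libraries thus held 28.4% and plasmablast WT libraries 20.9% of the level in the activated group with the same label. In naive cells with the same guide Irf8 was at 59.5, 77.7 and 72.4 RPKM in KO and 95.8, 98.0 and 93.3 in WT. With the other guide it was at 50.9, 50.3 and 47.6 RPKM against 88.0, 88.45 and 79.8. Naive KO cells thus lay below naive WT cells for Irf8 with both guides. RNA of a gene cut by a guide does not show how much protein remains. Thy1 (Entrez 21838), the gene of the sort marker Thy1.1, was at 32.8 and 40.7 RPKM in KO m1 and m2, at 35.9 in KO m3, and at 0.057 and 0.142 in WT. It matched the plasmablast labels in all 5 libraries and was 5.09 higher in KO (SE 0.17, adjusted p = 2.38e-09). The groups were gated on Thy1.1, so this difference was fixed in advance by the sort and says nothing about Irf8.

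Across the transcriptome few genes separated KO from WT plasmablasts. Of 9861 tested genes, 7 passed an adjusted p of 0.05 (0.071%), 6 higher (0.0608%) and 1 lower (0.0101%) in KO. With each library centred on its median 8 passed, all higher, and after quantile normalisation 3, all higher. Among the higher genes were Thy1, whose difference the sort had fixed in advance, Il10, Emb, Gm11827 and Bcl2a1b, and the lower gene was Vpreb3. The same fit gave 70 in activated B cells (0.71%), 61 of them higher in KO. At an unadjusted p of 0.05, 588 genes passed in plasmablasts (5.96%), and 12 genes differed by 1 or more on the log2 scale. Over all tested genes both KO libraries lay above both WT libraries for 19.2% and below for 8.43%, together 27.7%, and 60.5% of the differences were positive, with a median of 0.04. The plot of difference against level shows them over the whole table.

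**Figure D2:**
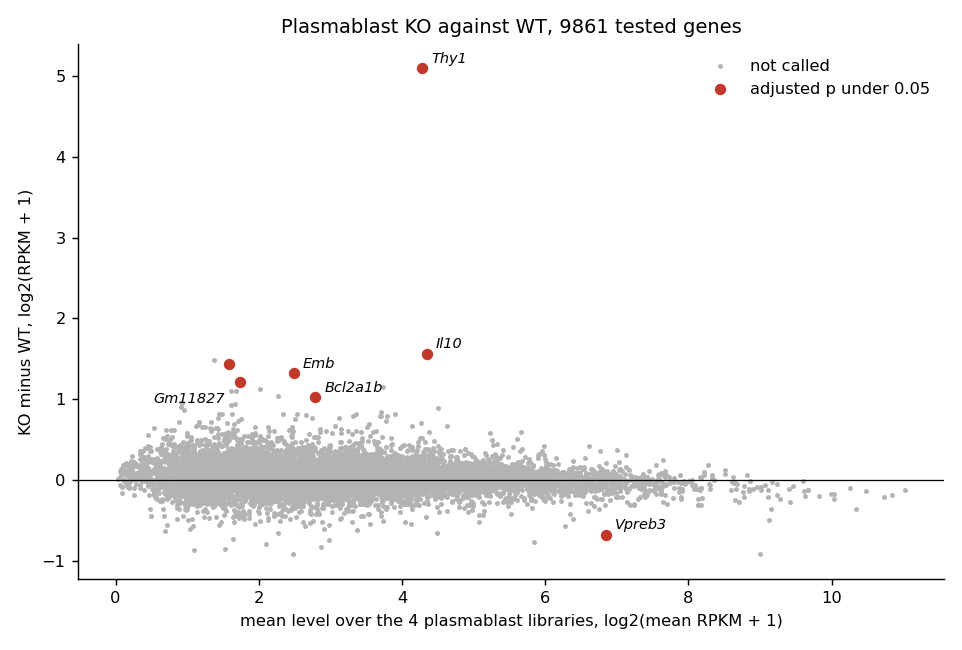
Difference between KO and WT plasmablasts (vertical, log2(RPKM + 1)) against the log2 of the mean RPKM + 1 over the 4 m1 and m2 libraries, 1 point per tested gene, with the 7 genes at an adjusted p under 0.05 in red. Thy1 stands far above the rest at 5.09, and the other higher genes lie between 1.02 and 1.56.

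Il10 encodes interleukin 10, a cytokine with which B cells and plasma cells restrain other immune cells. Il10 (Entrez 16153, chromosome 1, 131019845 to 131024970) was at 25.3 RPKM in KO m1, 33.7 in KO m2, 10.05 in WT m1 and 8.48 in WT m2. Both KO libraries lay above both WT libraries, with means of 29.5 ± 5.93 and 9.26 ± 1.11 RPKM (SD, n = 2 each), 3.19-fold apart. The difference was 1.56 (SE 0.16, adjusted p = 0.00127), and Il10 passed with each of the 4 plasmablast libraries left out in turn. The activated KO libraries held less Il10 than KO plasmablasts, at 10.6 and 8.26 RPKM, but overlapped with WT plasmablasts. The activated WT libraries were at 5.99 and 5.74 RPKM. In activated cells the difference was 0.59 (adjusted p = 0.119), and the test between the 2 cell types did not pass (0.97, adjusted p = 0.248). Naive KO and WT cells overlapped for Il10 with both guides. KO m3 had no read of Il10, where 1 read would have been worth 15.6 RPKM.

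Emb, Gm11827 and Bcl2a1b were also higher in KO. Emb (Entrez 13723, chromosome 13, 117220573 to 117274415) encodes embigin, a membrane glycoprotein that accompanies monocarboxylate transporters. It was at 7.45 and 6.58 RPKM in KO m1 and m2, at 14.6 in KO m3 from 5 estimated reads, and at 2.11 and 2.28 in WT. KO and WT did not overlap, and the difference was 1.32 (SE 0.16, adjusted p = 0.0051). Emb was the gene besides Thy1 that passed in both cell types, at 9.22 and 7.02 RPKM in activated KO and 4.03 and 4.26 in activated WT (0.82, adjusted p = 0.0398). In naive cells that carried the same guide it was at 12.9, 8.53 and 8.27 RPKM, against 0.694, 1.41 and 0.462 in the naive WT cells of that arm. With the other guide the naive groups overlapped for Emb, at 5.38, 4.26 and 1.54 RPKM against 3.20, 0.459 and 0.651.

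Gm11827 (Entrez 100503518, chromosome 4, 11123958 to 11126998), a gene model without an assigned function, was at 3.40 and 3.92 RPKM in KO and 1.39 and 0.676 in WT (1.22, SE 0.20, adjusted p = 0.047). The value of WT m2 rests on 4 estimated reads, and Gm11827 was under 1 RPKM in the 4 activated libraries. Bcl2a1b (Entrez 12045, chromosome 9, 89199273 to 89207838) belongs to the A1 group of genes that protect lymphocytes from apoptosis. It was at 8.92 and 7.59 RPKM in KO and 4.22 and 2.97 in WT, without overlap (1.02, SE 0.16, adjusted p = 0.047). Its near-identical copies were higher in both KO libraries too, but without passing the test: Bcl2a1d at 12.8 and 13.0 RPKM against 7.28 and 9.92, and Bcl2a1a at 1.47 and 1.61 against 1.18 and 0.565. How reads were divided among these copies is uncertain, so the gene at which the difference lies is uncertain as well. In activated B cells Bcl2a1b had a negative difference, at 56.5 and 58.1 RPKM in KO and 78.1 and 56.7 in WT (-0.21, adjusted p = 0.688), and the groups overlapped. Naive KO cells lay above naive WT cells with both guides.

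Vpreb3 fell. Vpreb3 (Entrez 22364, chromosome 10, 75943024 to 75949657), which encodes a protein of the endoplasmic reticulum that associates with immunoglobulin chains, was at 87.3 RPKM in KO m1, 88.1 in KO m2, 141 in WT m1 and 141.5 in WT m2. The 2 libraries of each group lay close together and the groups were far apart for that spread (-0.68, SE 0.11, adjusted p = 0.047). KO m3 was at 57.6 RPKM from 4 estimated reads. In activated cells the values were 128 and 126 RPKM in KO and 139 and 161 in WT (-0.23, adjusted p = 0.417). In naive cells of the same guide Vpreb3 was at 22.3, 32.6 and 15.8 RPKM in KO and 71.1, 80.0 and 107 in WT. With the other guide the naive groups overlapped for Vpreb3, at 31.4, 38.7 and 51.5 RPKM against 64.3, 96.2 and 50.6.

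Of these calls, Thy1 and Il10 held with each of the 4 plasmablast libraries left out in turn, Emb in 3 of the 4 cases, Gm11827 and Bcl2a1b in 1 and Vpreb3 in 0. With KO m3 added to the same fit, Thy1, the gene of the sort marker, was the 1 gene that passed.

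**Figure D3:**
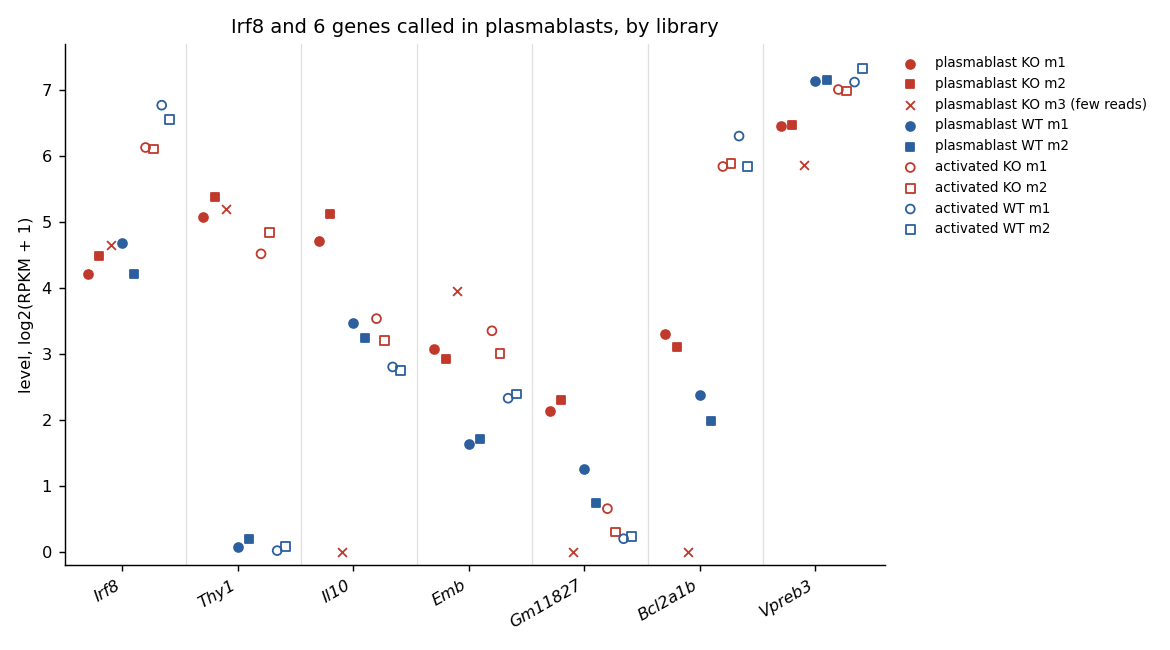
Level of Irf8 and of 6 genes at an adjusted p under 0.05, as log2(RPKM + 1), 1 point per library, with KO in red, WT in blue, filled points for plasmablasts, open points for activated B cells and crosses for plasmablast KO m3 with its few reads. KO and WT plasmablasts overlap for Irf8 and not for the others, and the crosses for Il10, Gm11827 and Bcl2a1b lie at 0.

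Among the genes just short of the threshold were several known from B cells. Gpr183, the oxysterol receptor EBI2 that positions B cells in the follicle, was at 9.23 and 10.7 RPKM in KO and 5.27 and 5.62 in WT (0.76, adjusted p = 0.052). Spib, the ETS family partner of IRF8 and IRF4, was at 1.45 and 1.55 RPKM in KO and 0.464 and 0.281 in WT (0.87, adjusted p = 0.0567). Phlda3, a p53 target that restrains AKT, was at 6.91 and 7.13 RPKM in KO and 3.38 and 3.81 in WT (0.81, adjusted p = 0.0642). Cd83, an activation marker of B cells and dendritic cells, Cd22, the inhibitory sialic acid receptor of B cells, and Gbp2, an interferon-inducible guanylate-binding protein, followed at adjusted p of 0.0846, 0.0873 and 0.0913. Cd22 was at 4.20 and 2.55 RPKM in KO and 1.40 and 0.672 in WT. Gbp2 was at 3.69 and 2.63 RPKM in KO and 1.47 and 0.490 in WT. For each of the 6 genes named here both KO libraries lay above both WT libraries. The values of WT m2 rest on 4 estimated reads for Spib and 6 for Gbp2. Spib, Cd22, Gbp2 and Cd83 were far higher in activated B cells, and their plasmablast means were 4.23%, 6.05%, 6.61% and 16.3% of the activated level in KO and 0.699%, 1.45%, 2.00% and 7.80% in WT. The sum of the 5 B cell markers given above, which include Cd22, was also higher in KO. KO and WT overlapped when Ms4a1 was added, but Ms4a1 made up most of that larger sum. The part of the 5 markers' sum in these values was not tested.

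Among genes with a mean of 5 RPKM or more and both KO libraries below both WT libraries, the 3 largest differences did not pass the test. Slpi, a secreted inhibitor of serine proteases, was at 413 RPKM in KO m1, 297 in KO m2, 703 in WT m1 and 629 in WT m2. The groups did not overlap, as this choice requires, and the difference was -0.92 (SE 0.23, adjusted p = 0.299). KO m3 was at 413 RPKM from 33 estimated reads, also below both WT libraries. Enpp1, a membrane enzyme that hydrolyses nucleotides, was at 3.85 and 4.599 RPKM in KO and 10.3 and 6.56 in WT (-0.83, adjusted p = 0.223). Akap12, a scaffold of protein kinase A, was at 5.17 and 4.40 RPKM in KO and 11.7 and 6.34 in WT (-0.74, adjusted p = 0.43). After Vpreb3 the next 8 genes, among them the histone genes H3c11 and H2bu2 and the MAP kinase phosphatase gene Dusp5, had differences of -0.66 to -0.54 and adjusted p of 0.196 or more. Above WT, the metallothionein Mt1 (25.2 and 31.8 RPKM in KO, 14.9 in each WT library), the atypical inhibitor of NF-kB Nfkbid (10.7 and 13.4 against 6.50 and 6.30) and Marcksl1 (16.7 and 19.0 against 12.1 and 7.78) differed by 0.81 to 0.89, with adjusted p of 0.148 to 0.391.

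Promoters of the named genes were read from RefSeq (GRCm38.p6; 250 bases before to 50 after the start), since IRF8 is known to bind such motifs. Of 70 named genes 53 were in the promoter table, and 9 of these (17.0%) held a match to the ETS-IRF composite core GGAANNGAA or the interferon response core GAAANNGAA on either strand. Among all 32851 promoters of that length 15.8% held either motif, 8.24% the first and 8.56% the second, so the share in named genes was near that of all promoters. Of the genes that passed, Emb, Bcl2a1b and Vpreb3 were in the table and 0 held a match. The 3 sequences below belong to the genes with a match and the largest differences, none of which passed the test, and show what such a match looks like. Capitals mark the matches: in Gbp2 (chr3:142620413-142620712, plus strand) 1 interferon response core, 58 bases before the start; in Cd22 (chr7:30878979-30879278, minus strand) 3 composite cores that overlap each other, 126, 121 and 116 bases before; and in Ifit1 (chr19:34640639-34640938, plus strand) 3 interferon response cores in 2 runs, 109, 103 and 84 bases before. The starts are those of the promoter table, and that of Cd22 lies inside the span of the gene, downstream of its outermost start. A match is a description of the letters, not a measured site.
Gbp2: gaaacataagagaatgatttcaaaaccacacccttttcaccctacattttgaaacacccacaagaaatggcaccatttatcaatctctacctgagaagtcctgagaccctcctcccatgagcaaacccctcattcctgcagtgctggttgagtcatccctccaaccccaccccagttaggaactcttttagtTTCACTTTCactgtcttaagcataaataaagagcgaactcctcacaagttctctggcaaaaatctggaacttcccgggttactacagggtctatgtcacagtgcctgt
Cd22: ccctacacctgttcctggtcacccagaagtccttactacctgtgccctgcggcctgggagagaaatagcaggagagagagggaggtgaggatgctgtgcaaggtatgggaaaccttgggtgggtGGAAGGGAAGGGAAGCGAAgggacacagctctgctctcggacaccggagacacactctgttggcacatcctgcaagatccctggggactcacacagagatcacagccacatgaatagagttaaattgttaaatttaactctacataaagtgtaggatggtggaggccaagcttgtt
Ifit1: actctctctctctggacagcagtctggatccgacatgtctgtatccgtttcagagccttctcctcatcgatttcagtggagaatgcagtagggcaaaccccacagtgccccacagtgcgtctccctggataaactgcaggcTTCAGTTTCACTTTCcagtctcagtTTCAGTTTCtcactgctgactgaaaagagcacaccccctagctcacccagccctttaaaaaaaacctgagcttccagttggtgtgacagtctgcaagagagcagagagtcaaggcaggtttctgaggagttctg

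The gene lists that describe plasma cells and antibody secretion held no gene that passed limma's test. Of 22 plasma cell genes 10 had a positive difference (60.5% over all genes), and 3 lay above and 2 below WT in both KO libraries (19.2% and 8.43% over all genes). Their median was -0.01, against 0.04 over all tested genes, and 1 had an unadjusted p under 0.05 in each direction (5.96% over all genes in either direction). Prdm1, Xbp1 and Irf4, the genes of the factors that drive the plasma cell state, differed by 0.10 (95% interval -0.16 to 0.36), -0.01 (-0.43 to 0.42) and 0.13 (-0.15 to 0.41). For Sdc1 it was 0.03 (-0.31 to 0.37). Prdm1, at 77.1 and 79.8 RPKM in KO and 69.6 and 76.6 in WT, lay slightly above WT in both KO libraries, as did Irf4 at 132 and 143 against 122 and 129. The largest difference in the list was that of Slpi, given above, which lay below WT in both KO libraries (-0.92, adjusted p = 0.299). The largest member above WT was Tnfrsf17, the gene of the survival receptor BCMA, at 19.1 and 25.2 RPKM against 18.9 and 12.8 (0.47, adjusted p = 0.812). In activated B cells Tnfrsf17 passed (1.12, adjusted p = 0.0235). Of 30 genes of the unfolded protein response and secretory pathway 0 passed, also at an unadjusted p of 0.05. Of them 26 had a negative difference (39.5% over all genes), with a small median of -0.08. That median was 0.01 after quantile normalisation, 0.05 without WT m2 and -0.20 without WT m1. Calr, the chaperone calreticulin, shows the pattern, at 516 and 500 RPKM in KO and 491 and 708 in WT, where WT m2 was the high library. In activated B cells all 30 of these genes had a positive difference, with a median of 0.26.

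None of the 21 mature B cell genes examined passed, and 7 had an unadjusted p under 0.05, all higher in KO (5.96% over all genes in either direction). Of the 21 genes 18 had a positive difference (60.5% over all genes) and 10 lay above WT in both KO libraries (19.2% over all genes), with a median of 0.22. It stayed between 0.09 and 0.33 over 13 other settings without KO m3. The mean log2(RPKM + 1) of the list was 3.85 in KO m1, 3.73 in KO m2, 3.61 in WT m1 and 3.44 in WT m2, and in activated libraries it was 5.28 to 5.54. Cd22 and Spib, given above, and Ciita, the master regulator of MHC class II, at 1.26 and 1.01 RPKM against 0.447 and 0.327 (0.62, adjusted p = 0.298), had larger differences than Pax5 (0.01) and Bach2 (0.02), factors that maintain B cell identity. Fcer2a, the gene of CD23, was at 4.61 and 1.91 RPKM against 2.10 and 0.844, and its groups overlapped. In activated B cells the median of the list was -0.13, with 15 of 21 differences negative. Several of these genes are among the 5 B cell markers whose sum, without Ms4a1, was higher in the KO plasmablasts. The part of activated B cells in the list's values was not tested. A smaller number of cells of a type and less RNA per cell cannot be told apart in these bulk libraries.

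Among genes that regulate apoptosis, Bcl2a1b was the 1 that passed (0.071% over all genes). Of 13 BCL2 family genes 11 had a positive difference (60.5% over all genes) and 7 were above WT in both KO libraries (19.2% over all genes), with a median of 0.31. The near-identical copies Bcl2a1a, Bcl2a1b and Bcl2a1d were counted as separate members and all lay above WT in both KO libraries. These counts and the median may thus hold 1 signal several times. Bcl2l11, the gene of the pro-apoptotic protein BIM, was at 36.1 and 23.2 RPKM in KO and 16.3 and 19.6 in WT (0.67, adjusted p = 0.617). Bax, another pro-apoptotic member, was at 66.4 and 72.2 RPKM against 58.4 and 53.2 (0.31, adjusted p = 0.665), and the pro-survival Bcl2l1 and Mcl1 differed by 0.00 and 0.09. Of 17 p53 targets 15 had a positive difference and 10 were above WT in both KO libraries, with a median of 0.28, 0 that passed and 7 at an unadjusted p under 0.05 (5.96% over all genes). Cdkn1a, the cell cycle inhibitor p21, was at 6.40 and 8.46 RPKM in KO and 5.06 and 4.55 in WT (0.53, adjusted p = 0.57). In activated B cells the medians of the lists were -0.14 and -0.08. Bax and Bbc3 are in both lists. Over the 13 settings without KO m3 the BCL2 family median was 0.12 to 0.35 and the p53 median 0.18 to 0.37. With KO m3 they were 0.01 and -0.08 to -0.03.

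**Figure D4:**
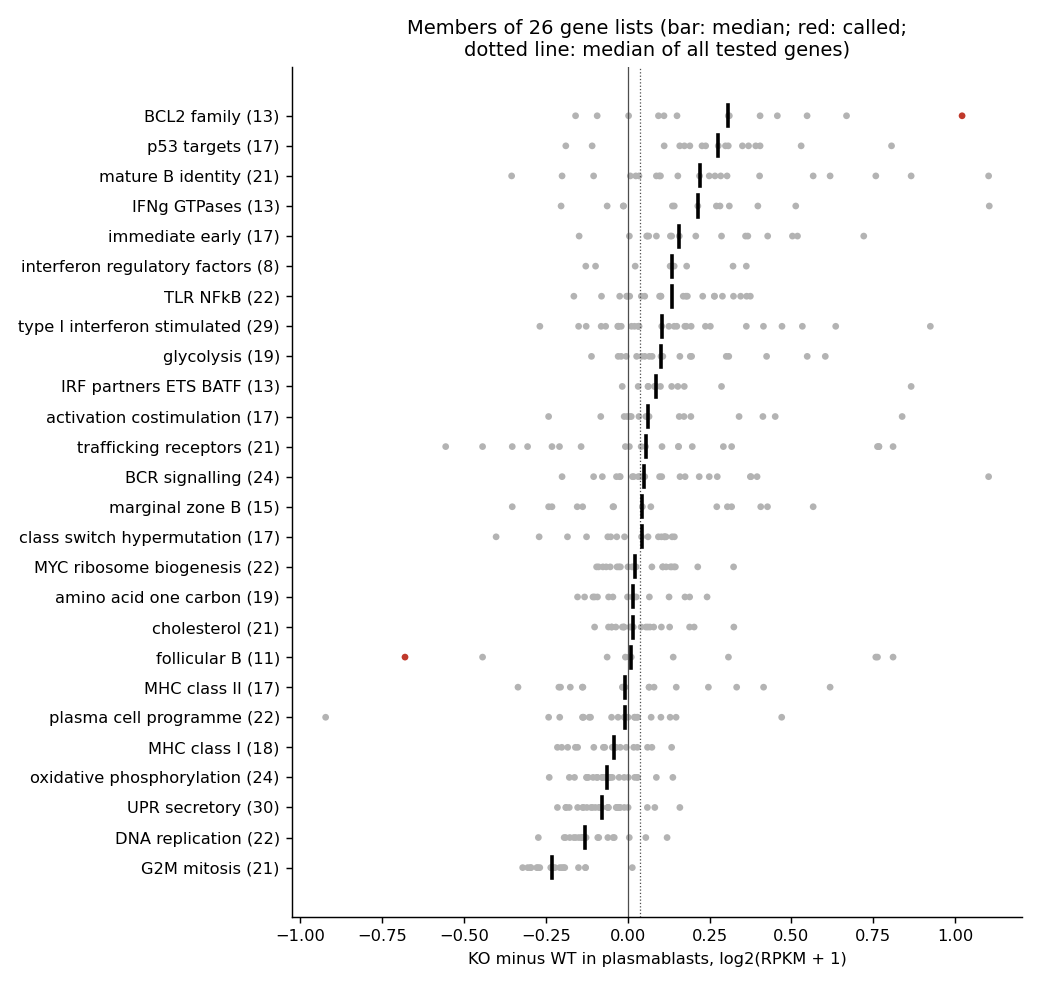
Differences between KO and WT plasmablasts (horizontal, log2(RPKM + 1)) of the members of 26 gene lists, 1 point per gene, with the number tested in parentheses, a black bar at the median, red points for genes at an adjusted p under 0.05 and a dotted line at the median of all tested genes. The BCL2 family and p53 lists have the highest medians, 0.31 and 0.28, and G2/M genes the lowest, -0.23. The BCL2 family list counts near-identical Bcl2a1 copies separately.

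Cell cycle genes had small negative differences. Of 21 G2/M and mitosis genes 20 were negative (39.5% over all genes) and 8 were below WT in both KO libraries (8.43% over all genes), with a median of -0.23. Of these 21 genes 0 passed and 3 had an unadjusted p under 0.05 (5.96% over all genes). Cdk1, the kinase that drives entry into mitosis, was at 25.6 and 27.5 RPKM in KO and 36.9 and 29.5 in WT (-0.30, adjusted p = 0.78). Ccnb2, a cyclin B that partners it, was at 77.4 and 104 RPKM against 124 and 102, so its groups overlapped. The mean log2(RPKM + 1) of the list was 5.01 and 5.12 in KO, 5.47 in WT m1 and 5.11 in WT m2, which places WT m2 with the KO libraries. The median was -0.04 without WT m1 and -0.42 without WT m2. Of 22 DNA replication genes 19 were negative, with a median of -0.13 (-0.02 without WT m1), 0 that passed and 1 at an unadjusted p under 0.05. Rrm2, a subunit of ribonucleotide reductase, was at 169 and 192 RPKM in KO and 220 and 216 in WT (-0.27, adjusted p = 0.818). Activated B cells had medians of -0.11 and -0.20 for the same lists.

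Interferon genes, to which IRFs bind, gave no call in plasmablasts. Of 8 measured interferon regulatory factors 6 had a positive difference (60.5% over all genes) and 2 an unadjusted p under 0.05 (5.96% over all genes). Irf7 was at 29.7 and 31.7 RPKM in KO and 25.5 and 21.9 in WT (0.36, adjusted p = 0.724), and Irf5 at 40.4 and 44.99 against 34.2 and 33.6 (0.32, adjusted p = 0.595). Irf7 passed in activated B cells (0.92, adjusted p = 0.0105). Of 29 type I interferon-stimulated genes 20 were positive (60.5% over all genes; median 0.10, and 0.01 after quantile normalisation) and 9 lay above WT in both KO libraries (19.2% over all genes), with 6 at an unadjusted p under 0.05 (5.96% over all genes). In activated B cells 26 of the 29 were positive and 5 passed (0.71% over all genes), with a median of 0.23. Ifit1, an antiviral protein that binds foreign RNA, was at 4.799 and 1.43 RPKM in KO and 0.7 and 1.31 in WT, a wide spread within KO (0.92, adjusted p = 0.663). Of 13 interferon-gamma-inducible GTPases 9 were positive, a share near the 60.5% over all genes, and 6 lay above WT in both KO libraries (19.2% over all genes), with a median of 0.21 and 3 at an unadjusted p under 0.05. Besides Gbp2, Gbp4 was at 16.4 and 15.6 RPKM in KO and 10.8 and 10.99 in WT (0.51, adjusted p = 0.196).

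The list of ETS and BATF partners of IRFs, which also holds Ikzf1, Ikzf3, Tcf3, Jun and Junb, had 12 of 13 differences positive (median 0.09). Spib had the largest, and Spi1, the gene of PU.1, differed by 0.03. Over all genes 60.5% of the differences were positive, the share to set beside this count and those of the next lists. Toll-like receptor and NF-kB genes were positive in 17 of 22 cases (median 0.14), with Rel at 3.90 and 4.48 RPKM against 2.70 and 3.32. Immediate early genes were positive in 16 of 17 cases (median 0.16), with Dusp1, the phosphatase that ends MAP kinase signals, at 23.9 and 20.0 RPKM against 14.3 and 15.7 (0.52, adjusted p = 0.507). B cell receptor signalling genes had a median of 0.05 and MHC class I and class II genes medians of -0.04 and -0.01. Of 21 trafficking receptors 0 passed, and 6 had an unadjusted p under 0.05 (5.96% over all genes), 4 of them higher in KO. Ccr10, a receptor by which plasma cells home to mucosal tissue, was at 8.20 and 6.62 RPKM in KO and 4.09 and 3.75 in WT (0.77, adjusted p = 0.165), close to its difference in activated B cells (0.76, adjusted p = 0.0535). Xrcc5, the Ku80 subunit of end joining, was at 9.86 and 10.6 RPKM in KO and 13.5 and 14.2 in WT (-0.40, adjusted p = 0.572).

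The differences in plasmablasts were set against those in activated B cells by a test of the difference between them. Of 9861 genes 3 passed (0.0304%), among them Spib (1.45, adjusted p = 0.0382) and Rgcc (-1.03, adjusted p = 0.0382), and 752 (7.63%) had an unadjusted p under 0.05. Spib was above WT in KO plasmablasts and below WT in KO activated B cells. Spib in activated cells was at 31.5 and 39.3 RPKM in KO and 55.6 and 51.0 in WT, far above its plasmablast level. Rgcc, a regulator of cyclin-dependent kinase activity, was at 176 and 171 RPKM in KO plasmablasts and 169 in each WT library. In activated cells Rgcc rose from 24 and 22.2 RPKM in WT to 50.9 and 48.2 in KO (1.07). Without plasmablast WT m2, activated KO m1 or activated WT m1, 0 genes passed this test.

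Apart from Thy1, 60 genes were higher and 9 lower in KO activated B cells. Of the 60, 51 had a positive difference in plasmablasts (60.5% over all genes), 32 lay above WT in both KO libraries (19.2%) and 1 passed, Emb (0.071%). Their median was 0.12 in plasmablasts and 0.81 in the activated cells that chose them. Of the 9 lower genes, 6 were negative in plasmablasts (39.5% over all genes), with a median of -0.14 against -0.90. The activated medians are those on which these genes were chosen and are given for scale only.

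**Figure D5:**
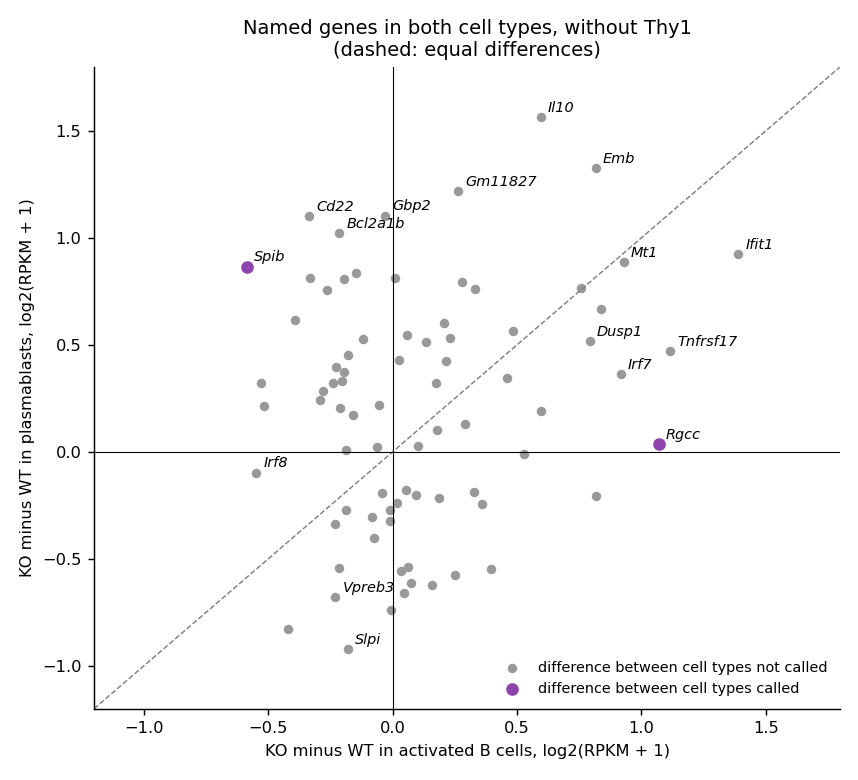
Difference between KO and WT in plasmablasts (vertical) against that in activated B cells (horizontal), both log2(RPKM + 1), for the named genes without Thy1, with a dashed line at equal differences and purple points for 2 genes whose differences between the cell types passed the test. Spib lies above 0 in plasmablasts and below 0 in activated B cells, and Rgcc lies near 0 in plasmablasts and at 1.07 in activated B cells.

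Adding KO m3 changed most of these values. Its 49000 estimated reads make 1 read of a gene such as Il10 worth 15.6 RPKM, and Il10, Gm11827, Bcl2a1b, Mt1 and Gpr183 were all listed at 0 in it. With KO m3 in the fit Il10 differed by -0.08 and Bcl2a1b by -0.05, whereas Thy1 stayed at 5.09 and Emb was at 1.64. The difference changed sign for 22 of the 70 named genes, and the median changed sign for 14 of the 26 lists. Of the genes that passed, Thy1 and Emb were above and Vpreb3 below both WT libraries in KO m3 as well. Lck, a T cell kinase, was at 53.9 RPKM in KO m3 and at most 1.02 in the other 4 plasmablast libraries. It was the 1 of 15 T cell markers among the listed genes. Low genes moved both ways in KO m3, with some at 0 as above. Others were raised, such as Flt3 at 37.9 RPKM and Slamf1 at 24.5, against at most 5.73 and 1.02 in the other 4 libraries. Whether KO m3 held T cells was not tested.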

How the data were processed

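PolyA RNA of sorted cells was sequenced from SMART-seq v4 and Nextera XT libraries. The authors deposited RPKM values, 1 table for cultured and 1 for naive cells. Per the submitters' processing notes STAR and the build mm10 were used. STAR's version, how reads were counted and which annotation served are not given in the sources used here. Each table was made separately, so tests stayed within the cultured one (10574 genes, 0 columns unused), and naive values are given side by side. Gene symbols altered to dates (15) were restored from the gene identifier, and coordinates are those of a RefSeq table on GRCm38 (mm10), which held 10568 of the identifiers. Total reads were estimated from the spacing of low values, 100% of which were whole multiples within 0.2 of a read. Counts are not analysed here, so no counting interval is given.

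Values were analysed as log2(RPKM + 1), which understates changes of low genes, for genes that reached 1 RPKM in at least 2 of 8 libraries (m1 and m2 of plasmablast and activated KO and WT), with 1 mean per group and 4 residual degrees of freedom. The test was limma's moderated two-sided test (limma 3.58.1, R 4.3.3) with a trend in the spread, adjusted by Benjamini and Hochberg over 9861 genes. It was also run on simulated data, the outcome of which is not given here. Named genes were Irf8 and Thy1, the 12 largest differences in each direction without overlap (genes that passed first, then those with a mean of 5 RPKM or more), the 2 largest in each list with a mean of 2 RPKM or more, and the genes that passed the test between cell types. Marker genes and other members of the lists were named as examples after their values were seen. The lists, and the choice of m1 and m2 among the labelled libraries, were made with earlier results of these data known. Some genes are in more than 1 list, and 2 genes, which the tests and counts over all genes include, are not reported here. Promoter motifs were searched as exact letters on both strands.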

Additional observations from a re-analysis of the deposited data

Results flagged for a closer look

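The KO difference was not the same in plasmablasts and activated B cells for Spib and Rgcc by the test of the difference itself. It was 1.45 larger in plasmablasts for Spib and -1.03 for Rgcc, which differed in activated B cells and hardly in plasmablasts. The sums of 5 B cell markers were also higher in KO plasmablasts. With Ms4a1 added KO and WT overlapped (54.15 RPKM in KO m2, 54.6 in WT m1), but Ms4a1 made up most of these larger sums. The part of the 5 markers in the differences of Spib and Rgcc was not tested.

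In libraries that the comparison left out, Thy1 was at 35.9 RPKM in plasmablast KO m3, where its label places it, and at 25.7 RPKM in the library labelled activated WT m3, where it does not. In plasmablast KO m3, Emb was at 14.6 RPKM from 5 estimated reads and lay above the 2 plasmablast WT libraries.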

How the results depend on the processing

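The count of 7 genes in plasmablasts was 8 with the 4 plasmablast libraries alone, 5 with no filter on low values, 7 with RPKM of 5 or more in 2 libraries, 8 with median centring and 4 with a pseudocount of 5. It was 12 with a pseudocount of 0.1, 3 with quantile normalisation and 3 with no trend in the spread. With KO m3 it was 1 when added to the 8 libraries, 0 with the 5 plasmablast libraries alone and 0 with all 11 cultured libraries (85 at an unadjusted p under 0.05, against 588), and there Il10 differed by -0.077 and Bcl2a1b by -0.048, both at 0 reads in KO m3. Leaving out each plasmablast library in turn gave 2 to 20, at 2 without KO m1, 4 without KO m2, 20 without WT m1 and 13 without WT m2. The lone library of a group is then assumed to vary like the other groups. The m-numbers are not said to pair libraries, same-numbered KO and WT plasmablasts deviated together at r = 0.128 over 9861 genes (-0.038 to 0.332 over all pairs of groups), and a replicate block gave 18 genes, all 7 among them, with Slpi, Mt1, Gpr183, Spib, Phlda3, Cd22 and Gbp2 also passing. Of the 3 genes that differed between cell types, 0 passed with all 11 libraries, with KO m3 added, with a pseudocount of 5, with no filter, with quantile normalisation, with median centring or with no trend. A replicate block left 1, a pseudocount of 0.1 gave 3 and RPKM of 5 or more 4. Leaving out each library in turn gave 0 to 15, at 15 without plasmablast WT m1, 11 without activated WT m2, 8 without activated KO m2 and 1 without plasmablast KO m2. The cause of these shifts was not tested, beyond the reads at 0 in KO m3. With 2 libraries a group and 4246000 estimated reads in WT m2, low genes such as Gm11827 rest on few reads.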

Other observations

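Medians of the metabolic gene lists in plasmablasts were small, from -0.06 to 0.10, against 0.04 over all genes. Of 22 MYC and ribosome biogenesis genes 14 had a positive difference (60.5% over all genes) and 0 had an unadjusted p under 0.05, with a median of 0.02. In activated B cells 21 of the 22 were negative, with a median of -0.38. Polr1b, a subunit of RNA polymerase I, was at 6.55 and 5.27 RPKM in KO plasmablasts and 4.56 and 4.44 in WT plasmablasts (0.32, adjusted p = 0.826), and its difference in activated B cells was -0.53 (adjusted p = 0.139). Of 19 glycolysis genes 15 were positive (60.5% over all genes), with a median of 0.10 that ran from -0.17 to 0.34 over the other settings without KO m3. Aldoc, an aldolase, was at 8.54 and 12.2 RPKM against 4.89 and 8.26, above WT in both KO libraries without passing the test (0.60, adjusted p = 0.663). Of 24 oxidative phosphorylation genes 18 were negative (39.5% over all genes) and 5 lay below WT in both KO libraries (8.43% over all genes), with a median of -0.06. Cholesterol and amino acid genes had medians of 0.02 and 0.02.

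Marginal zone genes, which the activated KO cells held at a median difference of 0.40, had a median of 0.04 in plasmablasts, with 8 of 15 positive (60.5% over all genes). Cr2, the complement receptor CD21, was at 12.03 and 9.53 RPKM in KO plasmablasts and 5.996 and 7.94 in WT plasmablasts (0.57, adjusted p = 0.665). Dtx1, a Notch target, was at 18.1 and 19.3 RPKM against 13.5 and 13.8 (0.43, adjusted p = 0.298). KO lay above WT in both libraries for both genes, and neither passed the test.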
